A study of Caenorhabditis elegans with 2 samples.

Results

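A set of 9 short genes of Caenorhabditis elegans that are annotated only as non-coding RNA (ncRNA), with no RNA family named, carry a SNPC-4 peak just upstream of their 5′ end. SNPC-4 corresponds to SNAP190 of vertebrates and is part of SNAPc, a complex that activates genes for small nuclear RNAs. The genes are F08G2.13, W01D2.7 and W01D2.8 on chromosome II, T19C4.11, T19C4.16, C18C4.17 and CD4.18 on chromosome V, K08B5.8 on chromosome X and ZK265.11 on chromosome I. They were chosen by peak signal, rank and summit position among 7764 nuclear genes of the ncRNA class: a peak among the 200 highest nuclear peaks of the series had its summit 30 to 80 bp upstream of the gene, with no small RNA gene of a known family as the likely owner. T19C4.11 lies inside T19C4.16 and both have the same peak, so the 9 genes stand on 8 peaks.

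The peaks come from chromatin immunoprecipitation with sequencing (ChIP-seq) of eGFP-tagged SNPC-4, the tag being a green fluorescent protein, in whole larvae of the first stage (L1). The strain, OP179, has the genotype unc-119(ed3) III; wgIs179, so both samples carry the unc-119 mutation and the tagged transgene. The larvae were recorded as pooled males and females, a record that was not checked here. The 2 samples are biological replicates of a single group with no second condition. The thresholded list, which the authors derived from both replicates, held 2347 peaks, of which 2319 were nuclear, and the relaxed list of each replicate held 30000. A peak's signal is a value the authors gave it, on a scale that no source used here states. Read depth is unknown, because the lists hold no counts. Signal, rank and summit distance chose the genes, so these are given below as descriptions with no test.

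SNAPc binds an upstream promoter element, the proximal sequence element, of genes for small nuclear RNAs (snRNAs), the RNA core of the splicing machinery. In vertebrates the same element serves both kinds of snRNA promoter. A TATA box placed after it marks the U6 type, which is read by RNA polymerase III, and its absence marks the type read by RNA polymerase II. RNA polymerase III stops at short runs of T. Which polymerase reads the 9 genes was not measured here.

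A group of 5 of the 9 genes, F08G2.13, W01D2.7, W01D2.8, C18C4.17 and CD4.18, shared both an upstream arrangement and words inside the RNA. Their sequences are shown because the arrangement is visible by eye. Each runs from 5 bases before the word GTC to 5 bases past the annotated 3′ end, 5′ to 3′ on the gene's strand. The capitals mark, in order, the upstream words GTC and TATATA, which stand 21 bases apart, and the transcript words GGTCCGGA, TGGGTTA and CTTGAC. On build ce11 the printed runs are II:13834444-13834583 (minus strand) for F08G2.13, II:14804422-14804564 (plus) for W01D2.7, II:14801345-14801486 (minus) for W01D2.8, V:5576161-5576378 (plus) for C18C4.17 and V:5587226-5587423 (plus) for CD4.18.
F08G2.13: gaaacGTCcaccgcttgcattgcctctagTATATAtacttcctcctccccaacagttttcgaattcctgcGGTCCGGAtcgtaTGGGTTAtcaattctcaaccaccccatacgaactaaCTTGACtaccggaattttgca
W01D2.7: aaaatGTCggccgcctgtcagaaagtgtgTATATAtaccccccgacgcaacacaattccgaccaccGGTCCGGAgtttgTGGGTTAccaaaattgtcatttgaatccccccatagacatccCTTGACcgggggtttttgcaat
W01D2.8: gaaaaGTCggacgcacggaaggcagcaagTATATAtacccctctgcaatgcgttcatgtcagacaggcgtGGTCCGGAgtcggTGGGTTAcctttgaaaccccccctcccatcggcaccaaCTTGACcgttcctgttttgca
C18C4.17: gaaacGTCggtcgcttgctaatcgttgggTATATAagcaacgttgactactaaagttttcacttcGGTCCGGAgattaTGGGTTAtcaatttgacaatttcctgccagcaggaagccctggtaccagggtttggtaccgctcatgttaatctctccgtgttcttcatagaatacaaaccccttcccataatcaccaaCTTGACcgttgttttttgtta
CD4.18: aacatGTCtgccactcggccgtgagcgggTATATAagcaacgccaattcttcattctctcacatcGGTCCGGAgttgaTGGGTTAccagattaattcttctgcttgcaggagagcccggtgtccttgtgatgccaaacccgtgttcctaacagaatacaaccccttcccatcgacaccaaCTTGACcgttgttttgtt

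The words were read off these 5 genes after their sequences had been seen, so that the 5 hold them is no finding. The other 4 genes, ZK265.11, T19C4.11, T19C4.16 and K08B5.8, hold instead the long upstream element of snRNA genes and no TATA word between the element and the gene. A matrix of 20 bases, fitted to the 100 bases upstream of snRNA genes and of the spliced leader (SL) RNA genes, which supply the leader added to worm mRNAs by trans-splicing, was used to find it. None of the 9 genes was used to fit it. Of these, T19C4.11 lies at V:11176943-11177120 (plus strand), T19C4.16 at V:11176926-11177134 (plus) and K08B5.8 at X:16564730-16564828 (plus), on build ce11. The runs below show bases 80 to 1 before the 5′ end of T19C4.16 (V:11176846-11176925, plus strand), K08B5.8 (X:16564650-16564729, plus) and, for comparison, the U1 snRNA gene sup-6 (II:12944968-12945047, minus), with the matched 20 bases in capitals.
T19C4.16: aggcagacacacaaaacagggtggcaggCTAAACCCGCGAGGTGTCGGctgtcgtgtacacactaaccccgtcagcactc
K08B5.8: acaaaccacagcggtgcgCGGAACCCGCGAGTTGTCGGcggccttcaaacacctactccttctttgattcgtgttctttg
sup-6: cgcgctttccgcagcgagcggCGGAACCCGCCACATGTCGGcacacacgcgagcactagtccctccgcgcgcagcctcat

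Peak signal differed widely among the 9 genes. F08G2.13 had the highest, with a signal of 3759 in the thresholded list (rank 10 of the nuclear peaks), 1445 in replicate 1 and 2326 in replicate 2. W01D2.7 came next, with 2728 in the thresholded list (rank 16), 1092 in replicate 1 and 1708 in replicate 2. ZK265.11 had 1282 (rank 39), with 539 in replicate 1 and 751 in replicate 2. These 3 genes are 58 to 76 bases long and are spread over chromosomes I and II.

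The shared peak of T19C4.11 and T19C4.16 had a signal of 557 (rank 58), with 232 in replicate 1 and 335 in replicate 2. C18C4.17 lay next to it at 546 (rank 60), with 199 and 346. These neighbouring ranks changed order between the replicates, C18C4.17 being the lower of the pair in replicate 1 and the higher in replicate 2. W01D2.8 had 319 (rank 81), with 119 and 194, and CD4.18 had 294 (rank 85), with 121 and 171, and this pair too changed order between the replicates. K08B5.8 was the lowest, with 181.5 (rank 143), 70.3 in replicate 1 and 108 in replicate 2.

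**Figure D1:**
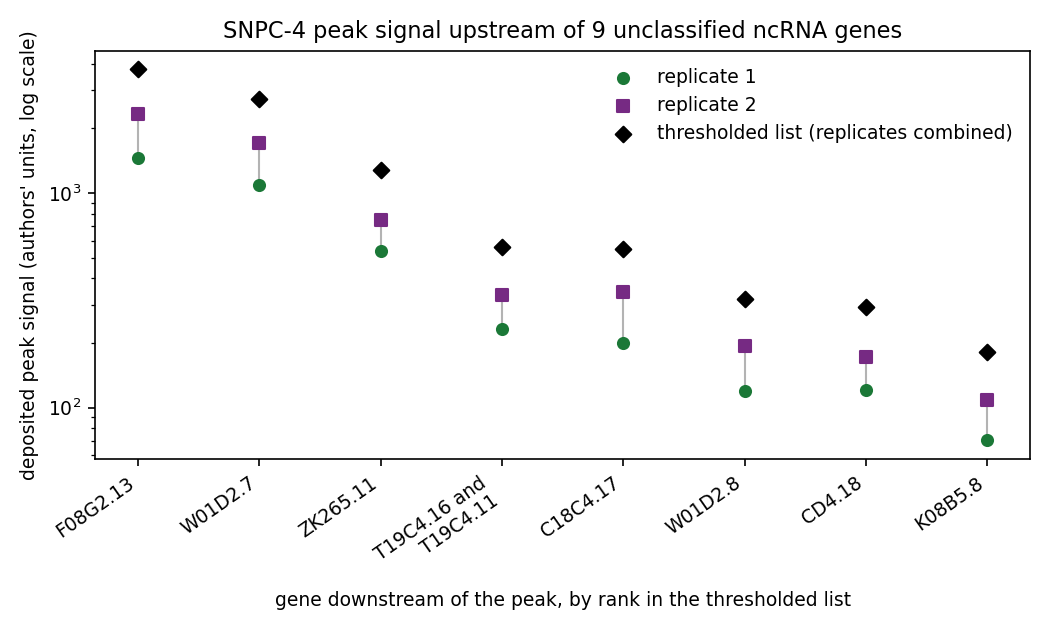
Deposited peak signal, on a log scale, of the 8 peaks in replicate 1 (circles), replicate 2 (squares) and the thresholded list that combines them (diamonds), ordered by rank. Signal falls from 3759 at F08G2.13 to 181.5 at K08B5.8, and replicate 2 lies above replicate 1 at every peak.

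Values of the 2 replicates are set side by side as a description. All 9 genes had a summit within 100 bp among the 200 highest nuclear peaks of both replicates, beside 80% of all 200 highest peaks. Nothing is read from this count or from the ratios and distances that follow, because the genes were chosen from these peaks. The thresholded list was itself derived from both replicates, and summits were matched only within 100 bp. Signal in replicate 2 was 1.39 to 1.74 times that in replicate 1, with a median of 1.55 over the 8 peaks, beside a median of 1.47 over the 199 of the 200 highest peaks found in both relaxed lists. The replicates' summits lay a median of 6 bp apart and at most 17 bp apart, against a median of 8 bp over the same 199 peaks. K08B5.8 moved most in rank, from 180 in replicate 1 to 134 in replicate 2.

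Summits lay 35 to 65 bp upstream of the annotated 5′ ends in the thresholded list, with a median of 48 bp. In replicate 1 the summits of C18C4.17 and CD4.18 stood only 27 bp upstream, against 44 and 35 bp in replicate 2. T19C4.16 kept its summit at 48 bp in both replicates, and T19C4.11, whose annotated 5′ end is 17 bp farther downstream, at 65 bp. The window of 30 to 80 bp was part of the choice, and 44 of the 7764 ncRNA genes (0.567%) had a thresholded summit inside it, of which 12 (0.155%) belonged to the 200 highest peaks.

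Of those 12 genes, 10 met the whole rule as computed here, the 9 genes and an ncRNA gene at IV:15853103-15853207 (minus strand), which is not counted among them. That gene had a signal of 177 (rank 144) with its summit 74 bp upstream, and its replicate summits lay 98 and 94 bp upstream, outside the window. Its best upstream element score was −1.67 bits, which is no match. The remaining genes of the 12 are mrpr-1, the gene for the RNA of RNase MRP, which has a name of its own, and K07C10.6, which overlaps the snoRNA gene K07C10.2 on the opposite strand. Just outside the limits of rank or distance, rpr-1, the gene for the RNA of RNase P, which also has a name of its own, had a signal of 4721 (rank 6) with its summit 25 bp upstream, C30C11.14 had 126 (rank 255) at 57 bp, and C17C3.23 had 116 (rank 290) at 80 bp. The SL RNA gene sls-2.2 starts within 250 bp of the last of these, so it also misses the condition on small RNA genes.

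The long upstream element was matched in 4 of the 9 genes, where 554 of 46867 other genes (1.18%) had a match. A match is a score of at least 5.08 bits. That is the 99th percentile of 46738 promoters, which leave out the 9 genes and the snRNA and SL RNA genes. The share over other genes is thus largely set by the threshold. K08B5.8 scored 34.6 bits, ZK265.11 29.6 bits, and T19C4.11 and T19C4.16, which share the same site, 28.2 bits. All these scores lay far above the threshold and within the range of snRNA genes. The summit fell close to the site, 0.5 bp from its centre in ZK265.11, 5.5 bp upstream of it for the T19C4 pair and 13.5 bp downstream of it in K08B5.8. The remaining 5 genes scored between −8.58 bits in C18C4.17 and −3.42 bits in W01D2.7, all below the threshold. Among the classes that the matrix was partly fitted to, 73 of 99 snRNA genes and 13 of 30 SL RNA genes had a match, which is no independent comparison, while 35 of 74 snoRNA genes with a summit within 100 bp had one.

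**Figure D2:**
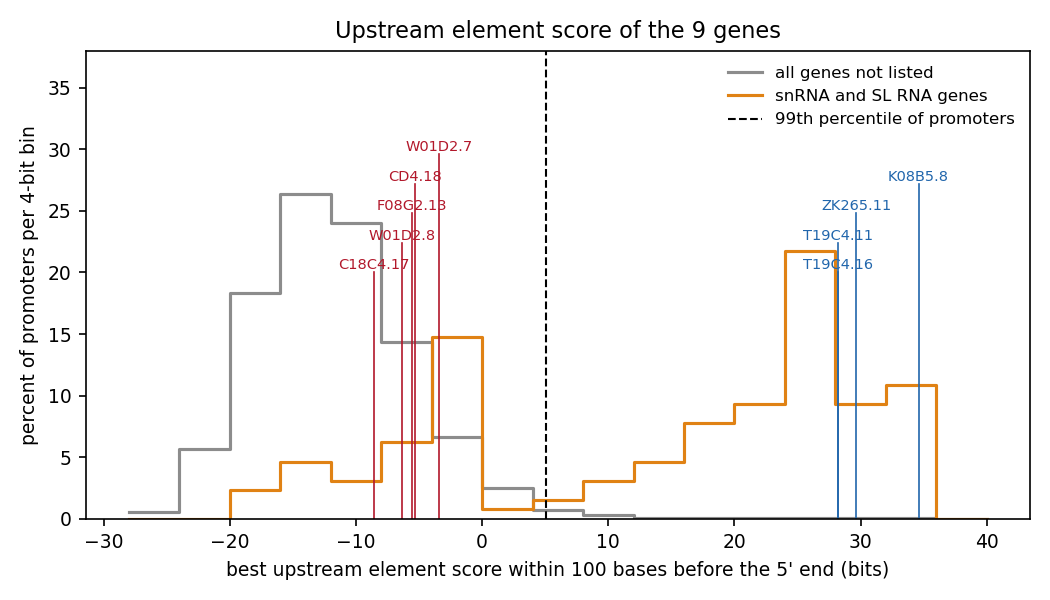
Best upstream element score in bits (x axis) against the percent of promoters in each 4-bit bin, for all other genes (grey) and for snRNA and SL RNA genes (orange), with the 9 genes as labelled lines. The 4 blue lines, from 28.2 to 34.6 bits, lie among the high scores of snRNA and SL RNA genes, and the 5 red lines, the genes with GTC and TATATA, lie left of the dashed threshold.

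The TATA word divided the genes in the opposite way. TATA lay 40 to 15 bases before the 5′ end in 4 of 9 genes, against 15.4% of the other genes. These were F08G2.13, W01D2.8, C18C4.17 and CD4.18, with the word starting 30 to 32 bases upstream. The word lay in that window in 8.06% of the other ncRNA genes and 1 of 30 SL RNA genes. It did in 3 of 74 snoRNA genes with a summit within 100 bp. It also did in 17 of 22 U6 genes (snRNA genes that hold the word ACAGAGA) and 8 of 77 other snRNA genes. In W01D2.7 the word starts 51 bases before the annotated 5′ end, outside that window. No TATA was found in the window in ZK265.11, T19C4.11, T19C4.16 or K08B5.8, the genes with the long element.

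The spaced pair GTC, 21 bases, TATATA (searched on the gene's strand within 100 bases upstream) was present in 44 other genes, or 0.0939% of 46867. Of those 44, 15 were U6 snRNA genes, out of 22 snRNA genes that hold the U6 word ACAGAGA, and 13 were ncRNA genes. A thresholded summit lay 0 to 100 bp upstream of the gene in 16 of the 44, among them 8 of the U6 genes, 4 of the ncRNA genes and 1 of 10 protein-coding genes. The pattern therefore occurred at many genes without a thresholded peak.

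Known genes with the pattern included rpr-1 and mrpr-1, W05B2.8, a U6 gene with the highest nuclear peak of the thresholded list (signal 6125, and rank 2 in replicate 1), and yrn-1, the gene for the worm Y RNA. The last of these was picked out after its values were seen, and had a signal of 108 (rank 335) with its summit 51 bp upstream. The promoters of W05B2.8 (III:10989619-10989678, plus strand) and yrn-1 (IV:7499449-7499507, plus) are shown up to the base before the 5′ end, with GTC and TATATA in capitals, for comparison with the 5 genes above.
W05B2.8: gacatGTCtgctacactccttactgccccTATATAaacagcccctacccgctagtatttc
yrn-1: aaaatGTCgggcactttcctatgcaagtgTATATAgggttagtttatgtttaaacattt
In W05B2.8 the long element was matched as well, from base −70 to base −51, so that GTC at base −55 lies inside it. The same overlap was found in rpr-1, with the element starting at base −69 and GTC at −54, and in mrpr-1, at −71 and −56. In the 5 unclassified genes no match of the long element was found around GTC. This is not particular to them, since 28 of the 44 other genes with the pattern had no match either, among them 5 U6 genes, mir-2214 and the snRNA gene M163.13 (signal 1444, rank 37), the last named after its values were seen. A thresholded summit lay 0 to 100 bp upstream in 3 of those 28 genes and in 13 of the 16 with a match. In the 5 unclassified genes the thresholded summits lay from 1 bp before GTC in F08G2.13 to 29 bp after it in W01D2.7.

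**Figure D3:**
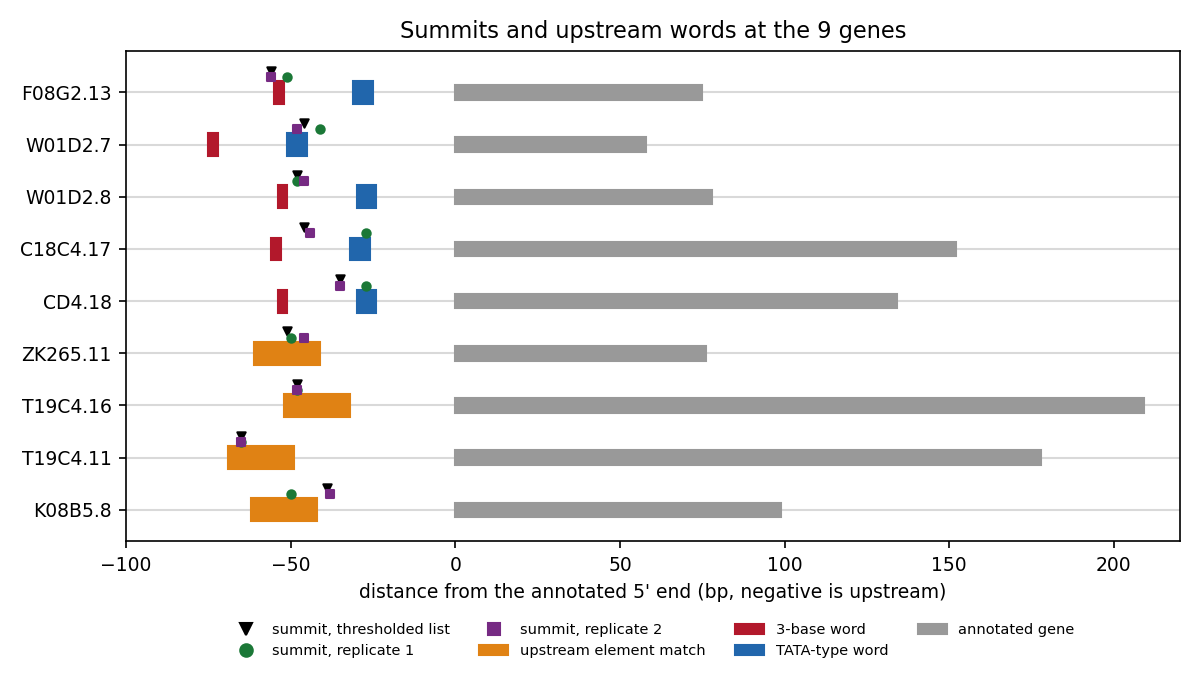
Map of the 9 genes by distance from the annotated 5′ end in bp, with the gene as a grey bar, the matched upstream element in orange, GTC as the 3-base word in red, TATATA in blue, and summits in the thresholded list (triangles), replicate 1 (circles) and replicate 2 (squares). The upper 5 genes have the red and blue words, the lower 4 the orange element, and the thresholded summits lie 35 to 65 bp upstream in all 9.

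A run of T at the 3′ end (TTTT, from the last 5 bases of the gene to 20 bases after it) was present in 7 of the 9 genes, against 41.6% of other genes. In the 5 genes with the spaced words it began 4 to 1 bases before the annotated end. In K08B5.8 it began 3 bases and in T19C4.16 15 bases after the end, and T19C4.11 and ZK265.11 had none. With the window closed 5 bases after the end only the 5 genes with the spaced words held a run, against 16.4% of other genes. That window was an alternative chosen after seeing the data, and the run of K08B5.8 reaches past its edge. In the window that reaches 20 bases after the end, all 22 U6 genes had TTTT, and 15 of 77 other snRNA genes did. So did 53 of 74 snoRNA genes with a summit within 100 bp, 98.5% of tRNA genes and 26.7% of the other ncRNA genes. Shares of these classes were not computed for the shorter window.

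The 3 transcript words, in order and with gaps of 0 to 40 and 5 to 160 bases, occurred at 10 places in the genome, all of them annotated genes. Beside the 5 genes these were mir-2214, annotated as a microRNA, and the ncRNA genes F08G2.12, B0361.13, F35E12.11 and CD4.19, which are named because they hold the words. TATA stood 35 to 41 bases before the first word in all 10, the spaced pair GTC and TATATA in 9, with CD4.19 as the exception, and TTTT at the 3′ end in all 10. The 10 are not independent of each other, since CD4.18 and CD4.19, for instance, are 96.2% identical over 133 bases. The spaced words were not used to find the 5 further places, but the places were looked for after the words were known.

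Not every one of the 10 places had a thresholded summit just upstream. A thresholded summit lay 0 to 100 bp upstream of the first word at the 5 genes and at mir-2214, whose signal was 1117 in the thresholded list (rank 41), 430 in replicate 1 and 698 in replicate 2. At the other 4 it did not. B0361.13 and mir-2214 point away from each other. The nearest summit to B0361.13, 145 bp upstream of its first word, was the one counted for mir-2214. CD4.19 and CD4.18 are arranged the same way, and the nearest summit to CD4.19, 170 bp upstream, was the one counted for CD4.18. To which gene of such a pair the summit between them belongs, or whether to both, was not tested. F08G2.12 lies 363 bp upstream of F08G2.13 on the same strand and had its nearest summit 128 bp upstream, with a signal of 45.9 (rank 1446). F35E12.11 had no thresholded summit closer than 7436 bp.

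The runs of mir-2214 (III:7278655-7278783, plus strand), which had a peak, and F35E12.11 (V:13722851-13723028, plus), which had none nearby, are shown with the same words in capitals, because both hold all 5 words.
mir-2214: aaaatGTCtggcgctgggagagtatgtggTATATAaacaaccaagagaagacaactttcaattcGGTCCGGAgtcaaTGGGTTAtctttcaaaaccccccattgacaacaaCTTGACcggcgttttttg
F35E12.11: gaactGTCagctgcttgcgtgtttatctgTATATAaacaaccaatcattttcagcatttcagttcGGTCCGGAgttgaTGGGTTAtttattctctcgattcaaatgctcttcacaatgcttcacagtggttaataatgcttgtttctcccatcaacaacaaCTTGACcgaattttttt
Within 150 bp before to 50 bp after the 5′ end of F35E12.11, 92.1% of words of 36 bases occur once in the genome, so most of that window is single-copy. The part of repeated sequence in the missing peak was not tested.

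The annotated 5′ end was not at the same place relative to the shared words in all genes. GGTCCGGA began 4 bases after the 5′ end in C18C4.17, 6 in CD4.18, 10 in F08G2.13 and 11 in W01D2.8. In W01D2.7 it began 14 bases before the annotated 5′ end, as it also did in F35E12.11. Measured from the first word instead, TATATA of W01D2.7 stood 37 bases upstream, beside 36 to 41 in the other 4 genes, and its summit 32 bp upstream, beside 41 to 66 bp.

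The 5 genes are 58 to 152 bases long as annotated. In the lowest-energy structure that RNAfold gave, 17 base pairs joined the first 25 to the last 25 bases in F08G2.13, W01D2.8 and CD4.18, and 12 did in C18C4.17. In W01D2.7, whose annotation starts after the first word, there were 4. K08B5.8 and T19C4.11 had 0 such pairs, T19C4.16 6 and ZK265.11 8. These are predictions from sequence and were not measured.

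Positions relative to protein-coding genes gave no common setting for these 5. W01D2.8 lies in an intron of the protein-coding gene W01D2.3 on the same strand. W01D2.3 is also the nearest gene upstream of W01D2.7, 192 bp away on the opposite strand, so these genes point away from each other. The summit counted for W01D2.7 lies between their 5′ ends. Whether it belongs to W01D2.7, to W01D2.3 or to both was not tested. The 5′ ends of W01D2.7 and W01D2.8 are 3075 bp apart. CD4.18 lies in an intron of CD4.11 on the same strand, C18C4.17 lies between genes, 98 bp from klc-2, and the 5′ ends of C18C4.17 and CD4.18 are 11063 bp apart. F08G2.13 lies between genes, 817 bp upstream of F08G2.5. The nearest gene upstream also holds the 3 transcript words at F08G2.13 (F08G2.12, 363 bp away, same strand) and at CD4.18 (CD4.19, 198 bp, opposite strand). The same is true of W01D2.8 (W01D2.7, 3074 bp, opposite strand). At W01D2.7 and C18C4.17 the nearest gene upstream does not hold them.

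W01D2.7 had the widest of the 8 peaks, 719 bp, and its interval held a second summit 156 bp downstream of the 5′ end, beyond the gene. That summit had a signal of 90.9 (rank 456) in the thresholded list and 127 (rank 86) in replicate 1, and replicate 2 listed none between 100 and 400 bp downstream. The ncRNA gene W01D2.9, which also holds the spaced words GTC and TATATA, starts 235 bp beyond the end of W01D2.7 on the same strand. The other 7 peaks were 217 to 494 bp wide.

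T19C4.11 and T19C4.16 are copies of annotated snoRNA genes. Small nucleolar RNAs guide the chemical modification of other RNAs. The 178 bases of T19C4.11 are 100% identical to the snoRNA gene T19C4.12, which lies 1237 bp away, counted between 5′ ends, on the opposite strand. T19C4.11 lies in an intron of gpa-1, a gene for a G protein alpha subunit, and T19C4.12 overlaps the same gene. T19C4.12 had a peak of its own, with a signal of 334 in the thresholded list (rank 75), 141 in replicate 1 and 198 in replicate 2, below that of the T19C4.11 copy in every list.

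More distant copies had peaks too. The snoRNA gene F43A11.8, 98.2% identical to T19C4.11, had a signal of 446 (rank 69), Y67A10A.14 at 91.8% had 1170 (rank 40), F25H2.15 at 90.9% had 1515 (rank 35) and F59C6.15 at 91.8% had 2738 (rank 15). All 5 snoRNA genes matched the long upstream element. No 36-base word of T19C4.11 occurs only once in the genome, whereas 91.6% of the words within 100 bp of its summit do. The summit thus lay in mostly single-copy sequence, upstream of a gene body that is wholly repeated.

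K08B5.8 lies between genes on chromosome X, 2154 bp from K08B5.1. It is 88.6% identical over 70 bases to the annotated microRNA gene cel-mir-8196a, 85.7% over 70 bases to cel-mir-8196b and 84.3% over 83 bases to the snoRNA gene T21F2.3, all on chromosome X. These relatives also had a peak, with a signal of 714 (rank 54) at cel-mir-8196a, 109 (rank 325) at cel-mir-8196b and 53.9 (rank 1132) at T21F2.3, and all matched the long element. K08B5.8, at 181.5, stood between them. The long non-coding gene linc-154, which overlaps the match at cel-mir-8196a, had no thresholded summit 0 to 100 bp upstream of its own 5′ end. The genome holds 2 further copies, X:16566005-16566095 at 86.2% identity and X:16566602-16566697 at 82.5%, where no gene is annotated. Peak values at those copies are not given here.

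**Figure D4:**
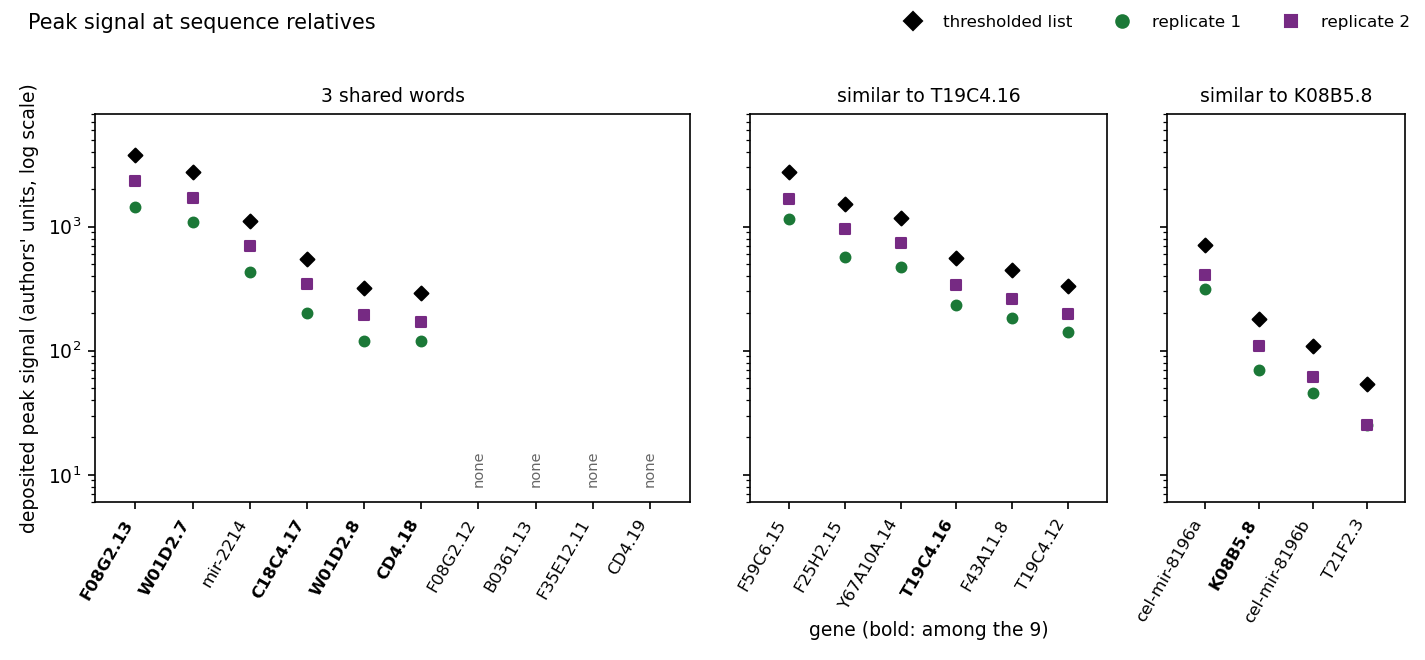
Deposited peak signal on a log scale at the genes that hold the 3 shared words (left), at T19C4.16 and its snoRNA copies (middle) and at K08B5.8 and its relatives (right), in the thresholded list (diamonds), replicate 1 (circles) and replicate 2 (squares, which hide the circle at T21F2.3), with the studied genes in bold. "None" marks the 4 genes without a thresholded summit 0 to 100 bp upstream of the first word, while all genes shown in the other panels have a peak. Not shown are linc-154, similar to K08B5.8, and T19C4.17, similar to T19C4.16 in antisense. Neither had a thresholded summit 0 to 100 bp upstream.

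ZK265.11, at I:8245547-8245622 on the minus strand, has no similar annotated gene at an e-value of 1e-05. It is 76 bases long, lies in the annotated 3′ UTR of the homeobox gene ceh-8 on the same strand, and had 100% of the 36-base words around its summit found once. It holds the word TGATGA within its first 30 bases and CTGA within its last 15, words that resemble the boxes of C/D-type snoRNAs. Of the other 7743 ncRNA genes 5 (0.0646%) have this pair, and of the annotated snoRNA genes 15 of 346 do. This search was not among those planned, and only 1 of the 9 genes holds the pair, so no RNA family is read from it. F08G2.13 and W01D2.7 also had no similar gene by alignment, although both hold the shared words, and 6 of the 9 genes had one.

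The 9 genes were 58 to 209 bases long, with a median of 99 bases. The median was 140 bases over the 7764 ncRNA genes, 121 over snRNA genes and 130 over snoRNA genes.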

How the data were processed

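ChIP-seq peak lists of 2 replicates were used as deposited, on build ce11. Signal values were made by the authors for each peak against a control alignment, as the deposited notes say, and the thresholded list was derived by the authors through the irreproducible discovery rate. The −log10 significance value deposited with each peak did not enter the ranking. Fragments were 150 to 350 bp, per the labels. No source used here names the aligner or peak caller. The members and lists were chosen with earlier results of these data known.

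Genes come from Ensembl's annotation of that assembly, sequence from RefSeq's WBcel235 genome. Peaks were ranked by signal over the 6 nuclear chromosomes. The element matrix was fitted by expectation maximisation to 79 non-redundant promoters (at most 80% identical, none on chromosome I) and scanned on both strands over 100 bases. The fitting method was tried on simulated data, recovering 40 of 40 planted sites and calling 0 of 20 sequences without one. That matrix was scored on the same 60 random sequences it was fitted to, so error rates on worm promoters were not measured. Similar genes were found with blastn 2.17.0 at 1e-05, structures with RNAfold 2.7.2. The genes named are the 9, those just outside its rank or distance limits, neighbours, similar genes and references. Others (yrn-1 and the genes with the 3 words) were named after their values were seen.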

Additional observations from a re-analysis of the deposited data

How the results depend on the processing

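The choice of genes was repeated with 150 peaks, with 20 to 100 bp and with the pooled relaxed list, each finding 10 genes, and with 300 peaks, finding 11, the addition being C30C11.14. With each replicate left out the rule found 7 to 10 genes; without replicate 2 it lost C18C4.17 and CD4.18, whose summits lay 27 bp upstream in replicate 1, and the gene outside the 9. Without replicate 1 it found the 9 and M163.12 in place of that gene. The median summit distance was −48 to −46 bp in single replicates. The count with a summit in both replicates was 9 at 50 and 25 bp, and cannot be computed with a replicate left out. The element was matched in 4 genes at every threshold and with every matrix tried. The matrix of snoRNA genes with a peak was fitted to genes chosen from these data, copies of T19C4.11 among them. Its matches at T19C4.11 and T19C4.16 are therefore not independent. The longer word TATAA was found in 2 genes, against 4 for TATA, and a window of 50 to 1 bases gave 5. A run of T was found in 5 to 8 genes, and a similar gene in 6 at both e-values. No paired analysis was possible because both samples belong to 1 group. Depth is unknown, so a missing peak is not shown to be absent binding.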
